A study of Homo sapiens with 33 samples.

Results

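H3K27ac was compared between EZH2-/- +EZH2 and EZH2-/- human ESCs at windows of 5 kb centred on transcription start sites. All 149487 windows on chromosomes 1 to 22 were used, of 153958 in the table, and they carry 34447 gene names. The value of a window is the H3K27ac level in EZH2-/- +EZH2 cells minus that in EZH2-/- cells, in log2 RPM (reads scaled to the size of their library), so a negative value means less H3K27ac once EZH2 was restored. Input chromatin (MNase-digested chromatin without antibody) of the same cells was measured in the same windows and serves as the background.

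All cells were H9, an established human ESC line, sorted for the ESC surface antigen SSEA4, and 4 genotypes were profiled. EZH2 +/+ (WT) cells are the unmodified line, and EZH2 -/+ (Het) cells carry 1 disrupted allele. EZH2-/- cells were derived from a heterozygous line that carried a doxycycline-inducible EZH2 transgene, and EZH2-/- +EZH2 (restored) cells are such cells with doxycycline switching that transgene on, so the restored EZH2 comes from an added promoter and not from the gene's own. The labels do not say whether the EZH2-/- cells used still held the silent transgene. For each genotype and mark the table has 1 column, a mean of 2 libraries, so the H3K27ac comparison has no replicate error and no test. The study's text describes more replicates for each ChIP average than the labels and the lowest values of the table show. Errors given for single windows cover read counting only. RNA-seq had 3 libraries a genotype. The study calls them biological replicates, but the labels do not say whether they came from separate cultures, and p-values measure the spread between these libraries.

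EZH2 is the catalytic subunit of PRC2, which methylates lysine 27 of histone H3. Acetylation by the EP300 and CREBBP enzymes takes place on the same lysine, so a single histone tail carries either H3K27me3 or H3K27ac. In ESCs, PRC2 covers the start sites of many developmental regulators, often together with H3K4me3 in the combination called bivalent, whereas H3K27ac marks start sites and enhancers that are in use.

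The promoters of 4 genes are shown because they differed in opposite directions. CDKN2A and TBX5 had less H3K27ac after restoration, and CHMP2A and GAPDH, the latter a housekeeping gene, had more. Each sequence is 300 bases around a RefSeq start site (GRCh38.p14), written 5′ to 3′ along the gene, with each CG dinucleotide in capitals. CDKN2A lies at chr9:21995275-21995574 on the minus strand, TBX5 at chr12:114407963-114408262 on the minus strand, CHMP2A at chr19:58555056-58555355 on the minus strand and GAPDH at chr12:6535014-6535313 on the plus strand.
CDKN2A: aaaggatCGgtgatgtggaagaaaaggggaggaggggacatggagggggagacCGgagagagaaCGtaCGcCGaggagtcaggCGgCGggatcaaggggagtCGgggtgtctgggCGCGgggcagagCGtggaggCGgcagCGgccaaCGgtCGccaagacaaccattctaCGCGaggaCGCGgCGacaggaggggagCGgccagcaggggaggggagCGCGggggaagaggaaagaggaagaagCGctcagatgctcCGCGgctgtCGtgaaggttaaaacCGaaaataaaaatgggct
TBX5: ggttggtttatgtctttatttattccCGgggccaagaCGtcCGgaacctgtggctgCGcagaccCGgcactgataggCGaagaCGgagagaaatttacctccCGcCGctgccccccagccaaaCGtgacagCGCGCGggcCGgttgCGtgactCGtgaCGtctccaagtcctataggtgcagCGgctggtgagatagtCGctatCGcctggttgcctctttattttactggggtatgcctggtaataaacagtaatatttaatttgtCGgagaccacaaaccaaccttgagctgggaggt
CHMP2A: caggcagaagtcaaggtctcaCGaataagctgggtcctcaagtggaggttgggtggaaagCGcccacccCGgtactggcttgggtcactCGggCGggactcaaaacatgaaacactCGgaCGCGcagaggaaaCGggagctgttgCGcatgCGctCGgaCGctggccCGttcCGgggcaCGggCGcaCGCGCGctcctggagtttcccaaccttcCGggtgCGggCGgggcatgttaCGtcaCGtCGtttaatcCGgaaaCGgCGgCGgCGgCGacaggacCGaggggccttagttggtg
GAPDH: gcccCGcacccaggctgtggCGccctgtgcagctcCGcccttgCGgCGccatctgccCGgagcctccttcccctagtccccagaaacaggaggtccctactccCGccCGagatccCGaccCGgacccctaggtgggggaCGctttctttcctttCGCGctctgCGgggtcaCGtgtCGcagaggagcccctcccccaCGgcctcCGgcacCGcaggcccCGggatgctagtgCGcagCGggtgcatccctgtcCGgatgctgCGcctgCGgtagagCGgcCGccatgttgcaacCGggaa
These promoters hold 28, 21, 33 and 28 CG dinucleotides in the order shown. RefSeq promoters were matched inside the windows of 163 of the 275 genes named or listed here. Of the 35116 promoters of that length in the RefSeq table, 26.2% hold at least 28, 39.5% at least 21 and 17.2% at least 33. CDKN2A and GAPDH, which differed in opposite directions, hold the same number.

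The comparison was checked through EZH2 itself. EZH2 RNA was at 11.5, 8.65 and 9.68 RPM in the 3 libraries of EZH2-/- cells and at 271, 385 and 256 RPM in those of EZH2-/- +EZH2 cells, against 59.5 to 68.6 RPM in WT. The restored level was therefore above WT in each library. The log2 fold change was 4.91 (SE 0.17, adjusted p = 1.2e-08, limma). H3K27me3 at windows that carry it in WT cells had a median of 11.03 RPM in WT cells, which went to 0.796 RPM in EZH2-/- and was 8.57 RPM after restoration. The ESC marker POU5F1 was at 1119 to 1525 RPM in EZH2-/- libraries and at 1237 to 1315 RPM after restoration. Not all ESC markers were level. SOX2 was at 88.0 to 135 RPM and then at 140 to 182 RPM. NANOG was at 84.5 to 92.4 and then 51.3 to 76.3 RPM, and TDGF1 at 279 to 303 and then 227 to 253 RPM. Their adjusted p was 0.18, 0.60 and 0.51 (limma), and that of SOX2 was 0.025 with library number as a block (limma). The ranges of LIN28A, DPPA4, DNMT3B and PRDM14 overlapped. ChIP depth, read from the lowest value of each column, was 8712885 reads a library for H3K27ac in EZH2-/- and 20754581 in EZH2-/- +EZH2 cells, so 3 reads correspond to 0.344 and 0.145 RPM.

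Across all windows H3K27ac changed little, with a median of -0.07 and quartiles of -0.40 and 0.26. The median input change was 0.05. A larger difference lay at windows with H3K27me3 in WT cells, which are those with H3K27me3 over 0.1 and input under 0.1 log2 RPKM (RPM per kilobase of window). These were 18559 windows of 6130 gene names. Their median H3K27ac change was -0.68, with quartiles of -0.96 and -0.41, and H3K27ac was lower in EZH2-/- +EZH2 cells at 17407 of them (93.8%). Over all windows it was lower at 55.8%. The median input change at these windows was also 0.05.

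The levels show where this difference lies. At H3K27me3 windows the median H3K27ac level was 1.60 RPM in WT, 1.89 RPM in Het, 2.58 RPM in EZH2-/- and 1.57 RPM in restored cells. In RPM the EZH2-/- column stood above the other columns, and the restored level lay beside that of WT. The columns were not scaled for unlike enrichment of the libraries. Input medians at the same windows were between 1.35 and 1.47 RPM in the 4 genotypes. H3K27ac therefore exceeded input by a median of 0.91 log2 in EZH2-/- cells and by 0.15 in EZH2-/- +EZH2 cells, against 0.26 in WT. The EZH2-/- value was the highest of the 4 genotypes at 78.7% of H3K27me3 windows and at 44.8% of all windows. At windows with H3K4me3 but no H3K27me3 in WT cells it was the highest at 52.5%.

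Windows with H3K4me3 but no H3K27me3 in WT cells, a combination typical of expressed genes, differed from these. Their 55004 windows had a median change of -0.07. Their median levels were 2.47 RPM in WT, 2.92 RPM in Het, 3.47 RPM in EZH2-/- and 3.27 RPM in restored cells, so the restored level remained nearer to the EZH2-/- level than to WT. Windows with neither mark and H3K27ac under the same threshold numbered 75859 and had a median change of 0.07. Their H3K27ac in WT cells had a median of 2.22 RPM, against 2.24 RPM over all windows. In Het, EZH2-/- and restored cells their median was 2.19, 2.10 and 2.25 RPM. The WT column thus differed least between windows with H3K4me3 alone and windows with neither mark. A level in RPM beside that of WT need not mean equal acetylation. A set of 93 windows of 34 gene names passed the threshold for both H3K4me3 and H3K27ac in WT cells without H3K27me3, and their median went from 7.65 RPM to 8.62 RPM, a median change of 0.22.

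Large changes were counted at windows with a geometric mean of at least 1 RPM over both columns, and the means below are of the same kind. Of 141753 such windows, H3K27ac was lower by 1 log2 or more at 4562 (3.22%) and higher by as much at 2900 (2.05%). H3K27me3 windows held 3729 of the lower windows, or 21.9% of the 17030 that passed the minimum, and 5 of the higher ones. Windows with neither mark held 2687 of the higher windows, or 3.85% of the 69872 that passed the minimum. None of the higher windows had a mean of at least 4 RPM, against 69 of the lower ones. In windows with neither mark and a mean under 1 RPM the median change was 0.54, and it was -0.20 at 4 to 5.66 RPM. The depth of the H3K27ac columns differed between the cells, and its part in this was not tested.

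The difference at H3K27me3 windows was seen at every H3K27ac level. In level strata from 1 to 4 RPM the median change of H3K27me3 windows was between -0.73 and -0.66, and in the same strata it was between -0.12 and -0.08 at windows with H3K4me3 alone. Below 1 RPM and above 5.66 RPM the H3K27me3 windows had a median of -0.46. In steps of GC content the median of H3K27me3 windows was between -0.70 and -0.53, with -0.53 at the 204 windows under 40% GC. Over all windows it went from 0.23 under 40% GC to -0.31 at 65% or more, and at windows with H3K4me3 alone from -0.0048 to -0.17. The part of GC content in the changes was not tested. Every autosome showed it. The median at H3K27me3 windows was between -0.80 on chromosome 21 and -0.54 on chromosome 20, and the median over all windows of a chromosome was between -0.13 and -0.03.

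Both classes of H3K27me3 window had less H3K27ac after restoration. The 15635 bivalent windows had a median of -0.69. The other 2924, with H3K4me3 under the threshold in WT cells, had a median of -0.62. The latter were not free of H3K4me3, with medians of 3.81, 6.11, 4.30 and 5.00 RPM in WT, Het, EZH2-/- and restored cells. Windows with neither mark had 1.82, 1.06, 1.16 and 1.18 RPM. The WT H3K4me3 column, on which the split rests, had a depth of only 3426083 reads a library. Windows with more H3K27me3 in WT cells had the larger difference, with a median of -0.54 in the lowest of 5 equal groups and -0.80 in the highest. Their H3K27ac was also the lowest. In the group with the most H3K27me3 the EZH2-/- median was 1.81 RPM and the restored median 1.03 RPM, which is below the input of EZH2-/- cells (1.30 RPM). Split by the EZH2 column of WT cells instead, the medians went from -0.63 in the lowest to -0.76 in the highest of 5 groups. The labels name EZH2 in the title of that library but list no antibody for it.

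The larger the H3K27me3 change of a window, the lower its H3K27ac change was, also where no H3K27me3 had come back. Outside the H3K27me3 set, 16934 windows with an H3K27me3 change under -0.5 log2 had a median H3K27ac change of 0.30. The 25579 windows between -0.5 and 0 had 0.17. Windows outside the H3K27me3 set with an H3K27me3 change between 0 and 0.5 log2 had a median H3K27ac change of 0.06, those between 2 and 2.5 had -0.43, and the 351 windows between 3.5 and 4 had -0.59. Inside the set, the 3739 windows with an H3K27me3 change between 3.5 and 4 had a median of -0.74, and the 2316 windows over 4.5 had -0.89. Over all windows, including those that regained no H3K27me3, the correlation of both changes was -0.60 (Pearson) and -0.60 (Spearman). Within the H3K27me3 set it was -0.36 and -0.32. It describes 149487 and 18559 windows that share libraries and overlap, and is given without a test. The same correlation with the input change was 0.01 over all windows (Pearson).

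The difference was smaller away from H3K27me3 windows. Windows with H3K4me3 alone that overlapped an H3K27me3 window had a median change of -0.34, those within 10 kb had -0.12 and those 100 kb or more away had -0.06. The corresponding medians of windows with neither mark were -0.30, -0.10 and 0.11. Overlapping windows share reads with the H3K27me3 window, and their own median H3K27me3 change was 1.84 and 1.56 log2 in these 2 groups. For 2772 gene names with an H3K27me3 window and another window that overlapped none, the change was lower at the H3K27me3 window for 2462 (88.8%), with a median difference of -0.61 and a median input difference of -0.01.

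The other marks moved less at the same windows. At H3K27me3 windows H3K4me1, a mark of enhancers and of the flanks of start sites, changed by a median of -0.33, from 4.54 to 3.57 RPM, against 3.51 RPM in WT cells. H3K4me3 had a median change of 0.08, from 9.10 to 9.88 RPM. Over all windows the medians were -0.11 for H3K4me1 and -0.06 for H3K4me3.

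With 1 window per gene name, the one with the most H3K4me3, H3K27ac was lower by 1 log2 or more at 4.62% of genes and higher at 2.62%. No minimum level was set for these shares, so they include windows averaging under 1 RPM. The 10 genes with the largest differences in each direction were taken among those with a geometric mean of at least 2 RPM over both columns, an input change under 0.5 and a name in RefSeq. All 10 with less H3K27ac in restored cells had H3K27me3 in WT cells. They were PXDC1, CACNA2D3, SLC6A2, GLIS1, FOXP2, TLE2, SPHK1, SFMBT2, CDKN2A and MAPRE2, with changes between -1.78 and -1.57. PXDC1 had 1.75 RPM in WT, 1.89 RPM in Het, 4.86 RPM in EZH2-/- and 1.41 RPM in restored cells, a change of -1.78 (counting SE 0.25). CACNA2D3, which encodes a calcium channel subunit, had 0.886, 1.58, 4.13 and 1.26 RPM in the same order. FOXP2, a forkhead transcription factor, had 1.53, 2.19, 5.59 and 1.77 RPM. In each of these 3 genes the EZH2-/- cells alone stood high, and the choice of genes by this difference favours a high EZH2-/- value. TLE2, a corepressor of the Groucho family, had 1.29, 2.14, 4.26 and 1.39 RPM.

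None of the 10 genes with the largest differences upwards had H3K27me3 in WT cells. Most gene names also lacked it, as 5736 of all 34447 had it. The 10 genes were CHMP2A, UTP11L, GAS5-AS1, PINK1-AS, TSACC, IQCJ, CDC27, C19orf53, SLC25A11 and USP14, with changes between 1.11 and 1.43. CHMP2A, a subunit of the ESCRT-III membrane remodelling complex, had 3.30 RPM in WT, 2.86 RPM in Het, 1.54 RPM in EZH2-/- and 4.14 RPM in restored cells. CDC27, a subunit of the anaphase-promoting complex, had 2.12, 2.27, 1.43 and 3.22 RPM. In both genes the EZH2-/- value was the lowest of the 4, which the choice of genes by this difference also favours. The EZH2-/- value rested on few reads, 13.4 a library at CHMP2A. GAS5-AS1 and PINK1-AS are antisense to other genes, and a window of 5 kb does not separate a gene from its neighbour.

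CDK inhibitor genes, which restrain the cell cycle, had a median change of -0.88 over 8 genes, 7 of them lower, against -0.17 over all gene names. The counts for this and the following lists stand beside 64.0% of all gene names with lower H3K27ac, and 93.2% of the 5736 gene names with H3K27me3 in WT cells, whose median was -0.70 and of which 22.6% were lower by 1 log2 or more. CDKN2A, which encodes p16 and ARF, had 0.886 RPM in WT, 2.12 RPM in Het, 5.70 RPM in EZH2-/- and 1.88 RPM in restored cells, a change of -1.60 (counting SE 0.22). These values are of 1 window, chr9:21992801-21997801, and do not cover start sites of the gene that lie outside it. H3K27me3 at that window was 21.9, 22.1, 0.332 and 10.1 RPM in the same order. CDKN2B, which encodes p15, had 0.762, 0.990, 2.66 and 0.933 RPM of H3K27ac. At both genes the EZH2-/- cells were far above the others, and at CDKN2A the restored level stayed above WT. CDKN1B, without H3K27me3 in WT cells, also had less H3K27ac, with a change of -0.93.

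Regulators of the heart and limbs had a median change of -0.69, with 19 of 20 genes lower and 5 lower by 1 log2 or more. H3K27me3 was present in WT cells at 19 of the 20, and these values are close to those of all H3K27me3 genes. TBX5, a T-box factor of the heart and forelimb, had 1.24, 1.19, 2.04 and 0.470 RPM in WT, Het, EZH2-/- and EZH2-/- +EZH2 cells, a change of -2.12 (counting SE 0.41). TBX3, a T-box factor whose geometric mean over both columns was under 2 RPM, had 0.843, 1.74, 3.82 and 1.02 RPM. TWIST1, a basic helix-loop-helix factor of the mesoderm, had 1.07, 0.959, 2.51 and 0.693 RPM. The restored values of TBX5 and TWIST1 lay below both WT and input. TBX4 was the exception, with 0.669 RPM in EZH2-/- and 1.04 RPM in restored cells, both below the input of EZH2-/- cells (1.60 RPM).

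Endoderm regulators had a median change of -0.72, with 13 of 14 lower and 4 lower by 1 log2 or more. HHEX, a homeobox factor of the foregut, had 0.784, 1.39, 2.62 and 0.910 RPM. SOX17, a defining endoderm factor, was the gene that was not lower, with 0.526 RPM in EZH2-/- and 0.737 RPM in restored cells, both under input, and its change of 0.49 had a counting SE of 0.54. Regulators of the primitive streak and early mesoderm had a median of -0.31, with 14 of 16 lower. FOXC1 had 0.810, 1.72, 2.39 and 0.769 RPM, a change of -1.63, whereas MIXL1 (0.23) and NODAL (0.01) were not lower. Neuroectoderm regulators had a median of -0.58, with 28 of 31 lower. SIX3, a factor of the forebrain and eye, had a change of -1.58, and PAX6, another eye factor, had -0.57 (counting SE 0.39).

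The HOX genes, which pattern the body axis, had less H3K27ac as well, but at levels near input. The medians were -0.71 for 11 HOXA genes, -0.51 for 10 HOXB genes, -1.0 for 9 HOXC genes and -0.81 for 9 HOXD genes. The median level of HOXD genes was 1.16 RPM in EZH2-/- and 0.715 RPM in restored cells, below input medians of 1.19 and 1.33 RPM. HOXD12 (2.92 to 0.862 RPM) and HOXC13 (1.92 to 0.590 RPM) had EZH2-/- levels above input.

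Signalling ligands and antagonists had a median of -0.46, with 21 of 28 lower, and 24 of the 28 had H3K27me3 in WT cells. NOG, a secreted antagonist of BMPs, had 1.18, 1.82, 3.69 and 1.32 RPM. Trophectoderm and amnion genes had a median of -0.35, with 14 of 17 lower, and mesenchyme and fibroblast genes had -0.32, with 17 of 22 lower. H3K27me3 was present in WT cells at 10 and 7 of them. In each list the members that differed most, TFAP2B (-1.65) and PDGFRA (-1.21), had H3K27me3 in WT cells.

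Housekeeping genes, none of which had H3K27me3 in WT cells, had a median change of 0.21, with 16 of 20 higher. GAPDH, a glycolytic enzyme, had 4.40 RPM in WT, 7.10 RPM in Het, 5.90 RPM in EZH2-/- and 9.44 RPM in restored cells. ACTB, cytoplasmic actin, had 3.82, 4.31, 4.31 and 6.91 RPM. The restored cells were the highest of the 4 at both genes. B2M, with 3.92 and 2.36 RPM, was lower. Among start sites with H3K4me3 alone the change was highest at the most expressed genes. Genes at 4 to 16 RPM of RNA in WT cells had a median change of -0.18, and the 307 most expressed ones had 0.17, with 73.3% of them higher.

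Pluripotency genes had a median change of -0.03, with 12 of 24 lower and 12 higher. POU5F1 had 3.62, 4.84, 3.54 and 5.61 RPM in WT, Het, EZH2-/- and EZH2-/- +EZH2 cells, and DPPA4 had 3.35, 4.05, 3.61 and 5.94 RPM. SOX2 (0.06), LIN28A (-0.10) and DNMT3B (0.05) differed by less than 1 counting SE. The lower members included CDH1 (-1.05), TERT (-1.03) and KLF4 (-0.71), which carry H3K27me3 in WT cells. CDH1 encodes E-cadherin and had 1.67, 2.07, 4.53 and 2.19 RPM. PRC2 subunits and enzymes that act on H3K27 had a median of -0.02 over 17 genes.

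RNA was compared between the same cells. Of 20608 genes tested, 542 (2.63%) were lower and 108 (0.524%) were higher in EZH2-/- +EZH2 than in EZH2-/- cells (adjusted p under 0.05, limma). Blocking on library number gave counts of 1276 and 661. Without EZH2-/- library 2 they were 106 and 12, so the counts rest strongly on single libraries. Genes whose H3K27ac was lower by 1 log2 or more had a median RNA log2 fold change of -0.42 (1066 genes tested), those lower by 0.5 to 1 had -0.13 (4045 genes), and those within 0.5 had 0.02 (13476 genes). RNA fell for 11.7%, 5.32% and 1.19% of them, and for 23.5%, 11.2% and 3.41% with the block. The 207 genes with H3K27ac higher by 1 log2 or more had a median RNA change of 0.01, and 2 of them rose (5 with the block). Their median H3K27ac was 0.889 RPM in EZH2-/- cells, under the input median of 1.49 RPM over all windows, whereas the genes lower by 1 log2 or more started from 2.99 RPM, so the groups are not alike in level.

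Most H3K27me3 genes had less H3K27ac without a called change in RNA, but their RNA fell more often than that of all genes. Of 4200 such genes tested, 3971 had lower H3K27ac. RNA fell for 317 of the 4200 (7.55%), or 689 (16.4%) with the block. Over all 19832 genes tested with a window it fell for 507 (2.56%), or 1180 (5.95%) with the block. The median H3K27ac change was -0.86 for the 317 and -0.70 for the 3865 whose RNA was not called. Genes without H3K27me3 whose RNA fell numbered 190 (491 with the block), and the median H3K27ac change of the 190 was -0.42.

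Single genes show both kinds. CDKN2A RNA was at 10.0, 14.1 and 15.0 RPM in EZH2-/- and at 2.70, 1.80 and 1.72 RPM in EZH2-/- +EZH2 libraries, without overlap, and fell by 2.60 on the log2 scale (SE 0.32, adjusted p = 0.0018, limma). TWIST1 RNA was at 5.61, 7.96 and 8.34 RPM and then at 0.257, 0.161 and 0.320 RPM (adjusted p = 1.7e-05, limma). TBX5 RNA was at 1.07, 0.807 and 0.564 RPM in EZH2-/- libraries and had no read in the restored or WT libraries (adjusted p = 0.00015, limma). CACNA2D3 and MAPRE2, with 2 of the 10 largest H3K27ac differences, had RNA changes of -0.35 and 0.17 (adjusted p = 0.44 and 0.57, limma).

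The reverse was also seen. SOX17 RNA was at 16.6, 29.2 and 15.8 RPM in EZH2-/- and at 4.47, 2.52 and 3.04 RPM in restored libraries (adjusted p = 0.027, limma), although H3K27ac at its window was under input in both. COL3A1, a fibrillar collagen, was at 4.70, 109 and 47.8 RPM and then at 0.0514, 0.0268 and 0.600 RPM (adjusted p = 0.0095, limma), with an H3K27ac change of 0.02. Its EZH2-/- libraries spanned a wide range. GAPDH, with more H3K27ac, had an RNA log2 fold change of 0.04 (adjusted p = 0.93, limma), and POU5F1 had -0.02 (adjusted p = 0.97, limma). Of the 107 genes with a window whose RNA rose, 71 had lower H3K27ac, with a median of -0.14 (418 of 652 with the block). These shares are near that of all 19832 genes tested with a window. Of those, 13025 had lower H3K27ac, with a median of -0.18. SFRP1, a secreted Wnt antagonist, had less H3K27ac (-0.56) and RNA that rose from 51.6 to 82.2 RPM to 146 to 190 RPM (adjusted p = 0.014, limma).

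Some lists of genes of other cell types had less summed RNA in restored cells. The counts below stand beside 2.56% of all 19832 genes tested with a window whose RNA fell (5.95% with the block). The summed RNA of the 22 mesenchyme and fibroblast genes was 1800 to 3199 RPM in EZH2-/- and 1440 to 1622 RPM in restored libraries, and 6 of 21 tested fell (10 with the block). That of the 20 heart and limb regulators was 48.7 to 146 RPM and 15.4 to 17.6 RPM, and 12 of 17 tested fell (16 with the block). The sum over 17 trophectoderm and amnion genes was 488 to 885 RPM and 325 to 384 RPM, with CGA and ELF5 at 0 in all 6 libraries. Of 12 tested, 2 fell (5 with the block). Endoderm regulators summed to 205 to 522 RPM and 52.6 to 77.2 RPM, and 3 of 14 tested fell (9 with the block). The sum of neuroectoderm regulators differed little, with 124 to 176 RPM and 122 to 173 RPM, and 2 of 23 tested fell (4 with the block). In such bulk samples fewer cells of a type and less RNA or H3K27ac per cell cannot be told apart, and the part of these cells in the H3K27ac difference was not tested.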

How the data were processed

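The authors trimmed the reads with Trim Galore 0.4.0, aligned ChIP reads with Bowtie2 2.2.5 and RNA reads with TopHat2 2.0.12 to GRCh38, counted them in SeqMonk and deposited log2 RPM, although the tables are named RPM. ChIP reads were extended and counted without duplicates within 2.5 kb of start sites, and a library without a read was set to 0.9 of 1 read. The lowest steps show that a histone column is the mean of 2 libraries on the log2 scale. Depth was read from those steps, and intervals and floors cover counting error only.

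H3K27ac changes are differences of the deposited log2 values, without a pseudocount, input subtraction or scaling. H3K27me3 windows were defined with the study's threshold for input and H3K27me3 (0.1 log2 RPKM in WT cells). The same threshold was applied here to H3K4me3 and H3K27ac, and the study's own promoter list, which differs in number, was not used here. RNA was tested with limma 3.58.1 in R 4.3.3 on log2(RPM + 0.1) of 12 libraries, for the 20608 genes of 35805 that averaged 0.1 RPM or more, with Benjamini-Hochberg adjustment. Such fold changes understate the change of low genes. Library totals were 25019064 to 56845644 reads. Same-numbered libraries of different genotypes deviated together (18 of 18 correlations over 0.1, from 0.107 to 0.56), so the numbers were taken to pair the libraries, and the fit with the number as a block is given beside the first. Named genes are the 10 largest differences each way over 1 window per gene name, members of 15 gene lists, and 9 example genes. The members and lists were chosen with earlier results of these data known. Promoter sequences are from RefSeq, GRCh38.p14. Python 3.11.15 was used for the windows.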

Additional observations from a re-analysis of the deposited data

How the results depend on the processing

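The H3K27ac table has no replicates, so no alternative tests it against replicate error. At H3K27me3 windows the median stayed negative in the alternatives run. It was -0.65 and -0.45 with pseudocounts of 0.1 and 1 RPM, -0.73 with the input change subtracted, -0.91 centred on the 93 windows active in WT cells, -0.70 with 1 window per gene name, -0.69 at windows averaging 1 RPM or more and -0.77 with a threshold of 1.1 log2 RPKM. Centring on windows with H3K4me3 and without H3K27me3, chosen after seeing the data, gave -0.61. Over all windows the median was -0.049 with a pseudocount of 1 RPM, -0.12 with input subtracted, -0.29 centred on active windows, -0.17 with 1 window per gene name, -0.083 at windows averaging 1 RPM or more, and turned to 0.0018 with the added centring. The sign of that median depends on the scaling.

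Windows higher by 1 log2 or more numbered 136 with a pseudocount of 1 RPM, 1121 centred on active windows, 290 with 1 window per gene name, 4586 without the filter and 0 at a mean of at least 4 RPM. Lower windows numbered 302 with a pseudocount of 1 RPM, 8773 with input subtracted, 10751 centred on active windows, 1450 with 1 window per gene name and 69 at 4 RPM.

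RNA genes higher and lower in restored cells numbered 661 and 1276 with the replicate block, 67 and 221 at genes averaging 1 RPM or more, and 59 and 343 without a filter. With only the 6 libraries compared, 67 were higher and 570 lower. Leaving out 1 library at a time gave 12 to 227 higher and 106 to 873 lower genes, with the lowest counts without EZH2-/- library 2 and the highest without Het library 3. The counts were 37 and 171 without EZH2-/- library 3, and 49 and 283, 31 and 207, and 25 and 255 without EZH2-/- +EZH2 library 1, 2 and 3.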
